A study of Rattus norvegicus with 20 samples.

Results

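The corticosteroid receptors and their response genes were followed in the hippocampus as 9 genes picked by symbol. They are Nr3c1, which encodes the glucocorticoid receptor, Nr3c2, which encodes the mineralocorticoid receptor, and the response genes Fkbp5, Sgk1, Tsc22d3, Zbtb16, Pdk4, Cdkn1a and Errfi1. All 9 symbols were found among the 17168 genes of both deposited tables, and all 9 had reads in every rat. Hippocampal mRNA came from 20 samples of female rats of 4 months, with a single library per rat in each table. The genotype table held 5 WTNT rats, wild-type and not treated, and 5 TGNT rats, transgenic-AD and not treated. The treatment table held 4 TGNT rats and 6 TGTR rats, transgenic-AD rats given diazoxide (DZ, an opener of ATP-sensitive potassium channels, 10 mg/kg daily) with dibenzoylmethane (DIB, a compound aimed at translation under stress, 200 mg/kg daily) in their chow, begun on day 52. Transgenic-AD rats, TgF-344AD in the labels, are Fischer rats that carry human APPsw and PS1-ΔE9 under the prion promoter, and both groups of the treatment table carry them. The sample labels name the left hippocampus, whereas the methods of the study name the right. Tissue of the whole hippocampus was sequenced, so fewer cells of a type and less RNA per cell cannot be told apart.

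Corticosterone, the main glucocorticoid of the rat, enters the brain and binds both receptors in the hippocampus. The mineralocorticoid receptor has the higher affinity and is largely occupied at rest, whereas the glucocorticoid receptor fills at the daily peak and under stress. Both then leave their chaperone complex, enter the nucleus and bind the same kind of DNA palindrome, from which genes such as Fkbp5, Sgk1, Tsc22d3 and Zbtb16 are induced, and FKBP51, the product of Fkbp5, lowers the affinity of the receptor for hormone in a short feedback loop. These response genes are therefore read in stress studies as a tissue record of recent hormone exposure. No hormone level accompanied the tables used here. Per the methods of the study, rats were kept on restricted food and tested in a radial arm maze. Some of them were then killed for RNA sequencing. The time between maze and tissue is not given in the sources used here. The part of food restriction and maze testing in the levels below was not tested.

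Values are given as RPM, read counts that the authors scaled to a common library size with TMM factors within each table, and were compared only within a table. RPM are not divided by transcript length, so the levels of different genes were not ranked. Fold changes, standard errors and p-values come from the quasi-likelihood test of edgeR on the rounded estimated counts over all 17168 genes, with Benjamini-Hochberg adjustment. A gene was called at an adjusted p under 0.05 and a change of at least 1.5-fold. Nothing in the labels says more about the rats of a group than that they are separate rats, and p-values measure the spread between them.

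Estimated counts summed to between 5848458 and 9926088 per rat in the genotype table and to between 9215039 and 14175594 in the treatment table. The transgene was as labelled. App, counted over rat and human transcripts, measured 1101 ± 47.5 RPM in WTNT rats and 2187 ± 122 RPM in TGNT rats (SD of 5 rats each), with no overlap. Markers of neurons, dentate gyrus, CA1 and CA3 were expressed in every rat. Some libraries stood apart in their markers, each level being the mean log2(RPM + 1) over a list. The level of 3 dentate granule cell markers was 4.07 in WTNT replicate 3 and between 5.19 and 6.17 in the other rats of that table. Choroid plexus markers reached 5.91 in TGTR replicate 5 and 2.71 in TGTR replicate 6, against at most 1.40 in the remaining rats of the treatment table. Blood markers reached 7.74 in TGTR replicate 4, against at most 5.63 in the other rats of that table. In the treatment table TGNT replicate 1 had a neuron level of 9.05 and a CA3 level of 4.08. The other TGNT rats of that table had 9.42 to 9.49 and 4.75 to 4.86. TGTR replicate 5 was also low in both, at 8.98 and 3.99. That TGNT rat was the lowest of its group in Nr3c1, Nr3c2, Fkbp5, Sgk1 and Errfi1, and the highest in Tsc22d3, Zbtb16 and Pdk4.

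The 3 upstream sequences are shown because the transcripts of these genes moved together or against each other across rats, as described further on: those of Fkbp5, which moved with Nr3c2 in both tables but not with Nr3c1 in the genotype table, Errfi1, which moved with both receptors, and Tsc22d3, which moved against both. RefSeq windows of the GRCr8 assembly were found for 7 of the 9 genes, in 12 windows, and Nr3c2 and Zbtb16 had no entry. Each stretch is the 250 bases before a transcript start, written 5′ to 3′ on the strand of the gene, at chr20:6543556-6543805 (minus strand) for Fkbp5, chr5:166606591-166606840 (plus strand) for Errfi1 and chrX:109065431-109065680 (minus strand) for Tsc22d3. Capitals mark the core ACANNNTGT of the receptor palindrome on either strand.
Fkbp5: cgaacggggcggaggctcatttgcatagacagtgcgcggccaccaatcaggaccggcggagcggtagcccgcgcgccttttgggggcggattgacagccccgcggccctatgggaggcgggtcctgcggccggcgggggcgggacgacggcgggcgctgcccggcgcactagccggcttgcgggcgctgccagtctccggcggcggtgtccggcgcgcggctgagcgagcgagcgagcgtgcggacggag
Errfi1: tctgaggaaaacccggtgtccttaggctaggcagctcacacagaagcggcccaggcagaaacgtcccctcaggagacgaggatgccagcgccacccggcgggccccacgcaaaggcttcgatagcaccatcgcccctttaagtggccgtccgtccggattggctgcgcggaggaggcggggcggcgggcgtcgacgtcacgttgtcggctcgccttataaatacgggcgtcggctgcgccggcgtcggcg
Tsc22d3: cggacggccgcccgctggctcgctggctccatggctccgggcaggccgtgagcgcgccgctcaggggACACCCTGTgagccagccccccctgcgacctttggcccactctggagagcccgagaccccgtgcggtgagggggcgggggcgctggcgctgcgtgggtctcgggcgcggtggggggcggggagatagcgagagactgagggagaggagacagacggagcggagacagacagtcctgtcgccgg
The palindrome was searched as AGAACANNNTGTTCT, its half-site as AGAACA and its core as ACANNNTGT, on both strands and in the full windows of 300 bases, which run from 250 bases before the start to 50 after it. The core lies inside the palindrome, so their counts overlap. None of the 12 windows held the palindrome or the half-site, and 1 held the core, the Tsc22d3 window shown, where ACACCCTGT begins 183 bases before the start. Tsc22d3 had other windows, at other transcript starts, and these held no core. Of all 33469 windows, 0.0149% held the palindrome, 20.7% the half-site and 6.86% the core. GC made up 76.0% of the Fkbp5 stretch, 67.2% of the Errfi1 stretch and 74.4% of the Tsc22d3 stretch, against a median of 51.2% over all windows. These counts cover letters near the start only.

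The glucocorticoid receptor gene Nr3c1 did not differ between genotypes beyond the spread of the rats. WTNT rats measured 276, 322, 277, 268 and 218 RPM, and TGNT rats 240.0, 259.8, 247, 306 and 274 RPM. Every TGNT rat lay inside the WTNT range. The log2 fold change was -0.03 (standard error 0.0923, 95% interval -0.23 to 0.17). In the treatment table the TGNT rats measured 129.5, 147, 149 and 156 RPM, and the TGTR rats ran from 142 through a median of 165 to 179 RPM. Of the 6 TGTR rats, 5 lay above the highest TGNT rat, and replicate 2 lay among the untreated. Nr3c1 was thus 0.17 higher on the log2 scale in TGTR rats (standard error 0.0677, 95% interval 0.03 to 0.32, unadjusted p = 0.0244), but did not pass adjustment over all genes with edgeR (adjusted p = 0.964), and the exact two-sided permutation test of RPM gave p = 0.0524. It passed p under 0.05 no longer without TGNT replicate 1, TGTR replicate 1 or TGTR replicate 6, the latter also together with replicate 5. Of 8 oligodendrocyte markers, all with reads, 8 also had a fold change above 0 in TGTR rats, with a median of 0.22 on the log2 scale and 1, Ermn, at an unadjusted p under 0.05. Their level ran from 7.81 to 8.41 in TGNT and from 8.03 to 8.68 in TGTR rats, and their part in the difference of Nr3c1 was not tested.

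The mineralocorticoid receptor gene Nr3c2 varied widely among WTNT rats, which measured 463, 450.1, 271, 432 and 279 RPM. TGNT rats measured 338, 299.6, 313, 356 and 373 RPM, all between the 3 high and the 2 low WTNT rats. One of the low rats was replicate 3, the library with few dentate transcripts. Its log2 fold change was -0.17 (standard error 0.138, 95% interval -0.46 to 0.13). It became -0.28 without WTNT replicate 3 (unadjusted p = 0.032, adjusted p = 0.831 with edgeR). Nr3c2 in the treatment table measured 228, 289.9, 334 and 329 RPM in TGNT rats, and TGTR rats ran from 193 through a median of 281 to 349.9 RPM. The TGTR range reached past the TGNT range at both ends, and the log2 fold change was -0.10 (standard error 0.146, 95% interval -0.42 to 0.21). The lowest TGTR rat was replicate 5, the library with most choroid plexus transcripts.

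The balance of both receptors was read in each rat as the log2 ratio of Nr3c2 to Nr3c1 RPM. It is not corrected for transcript length, so only its differences among rats of a table carry meaning. In the genotype table it was 0.45 ± 0.31 (SD, n = 5) in WTNT and 0.34 ± 0.13 (SD, n = 5) in TGNT rats, with every TGNT rat inside the WTNT range of -0.03 to 0.74. Among the TGNT rats of the treatment table the ratio was 0.82, 0.98, 1.17 and 1.08, a mean of 1.01 ± 0.15 (SD, n = 4). It was 0.97, 0.73, 0.81, 0.86, 0.27 and 0.71 in the TGTR rats, a mean of 0.72 ± 0.24 (SD, n = 6). The groups overlapped, with 4 of 6 treated rats below the lowest untreated rat. The smallest ratio belonged to TGTR replicate 5.

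**Figure D1:**
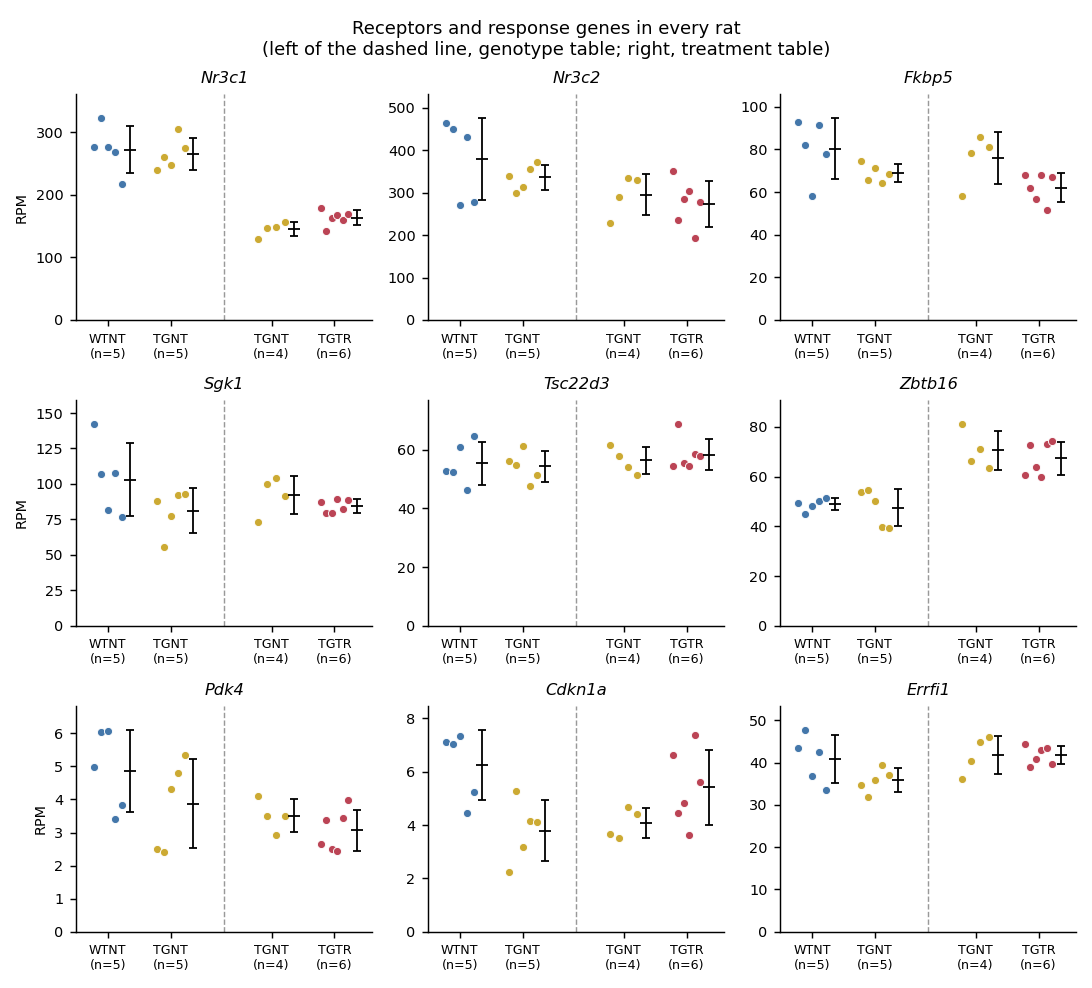
RPM of the 9 genes in every rat (points), with mean and SD (bars), for WTNT and TGNT rats of the genotype table left of the dashed line and TGNT and TGTR rats of the treatment table right of it. No gene had groups that separated fully, and the closest were Cdkn1a in the genotype table, with 4 of 5 TGNT rats below every WTNT rat, and Nr3c1 in the treatment table, with 5 of 6 TGTR rats above every TGNT rat.

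Fkbp5 encodes FKBP51, the cochaperone of the feedback loop, and is among the most hormone-sensitive transcripts in brain. WTNT rats measured 93.0, 82.0, 57.9, 91.5 and 77.8 RPM, and TGNT rats 74.7, 65.6, 71.2, 64.5 and 68.3 RPM. All TGNT rats lay below 4 of the 5 WTNT rats, and the exception was WTNT replicate 3. This gave a log2 fold change of -0.22 (standard error 0.105, 95% interval -0.44 to 0.01, unadjusted p = 0.0587). Without WTNT replicate 3 it was -0.33 (unadjusted p = 0.000487), and with the dentate marker level as a covariate it was -0.20 (unadjusted p = 0.00355). Neither passed adjustment with edgeR (adjusted p = 0.634 and 0.777).

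The mean of Fkbp5 was also lower in treated than in untreated rats, within their own table. TGNT rats measured 58.1, 78.3, 86.0 and 81.2 RPM, whereas TGTR rats ran from 51.4 through a median of 64.4 to 68.0 RPM. All 6 TGTR rats lay below 3 of the 4 TGNT rats, and the remaining TGNT rat, replicate 1, was lower than 4 of the treated. Fkbp5 was 0.28 lower on the log2 scale (95% interval -0.51 to -0.06, unadjusted p = 0.018), and the exact two-sided permutation test of RPM gave p = 0.0476. It was not called (adjusted p = 0.964 with edgeR). With the dentate marker level as a covariate the log2 difference was -0.27 (unadjusted p = 0.0008, adjusted p = 0.171 with edgeR), and without TGTR replicates 5 and 6 it was -0.25 (unadjusted p = 0.0359). Fkbp5 passed p under 0.05 no longer without TGNT replicate 3 or TGNT replicate 4. Nor did it pass in the limma fits or with replicate number as a block.

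Sgk1 encodes a kinase that both receptors induce and that acts on ion channels and transporters. WTNT rats measured 142, 107, 81.9, 108 and 77.0 RPM, and TGNT rats 87.9, 55.3, 77.3, 92.5 and 92.6 RPM. The 3 highest rats were WTNT and the lowest was TGNT replicate 2, with overlap between. Sgk1 thus had a log2 fold change of -0.34 (standard error 0.158, 95% interval -0.67 to 0.00, unadjusted p = 0.0505). Sgk1 in the treatment table measured 73.3, 99.9, 104 and 91.8 RPM in TGNT rats, and all TGTR rats lay inside that range, between 79.2 and 89.7 RPM around a median of 84.6. All TGNT rats of that table but replicate 1, at 73.3 RPM, lay above every TGTR rat. The log2 fold change was -0.13 (standard error 0.0825, 95% interval -0.30 to 0.05). Without TGNT replicate 1 it was -0.22 (unadjusted p = 0.00237, adjusted p = 0.292 with edgeR).

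Tsc22d3 encodes GILZ, a mediator of the anti-inflammatory action of glucocorticoids, and Zbtb16 encodes PLZF, a zinc finger repressor. Tsc22d3 measured 52.5, 52.4, 60.9, 46.3 and 64.7 RPM in WTNT and 56.2, 54.9, 61.3, 47.6 and 51.3 RPM in TGNT rats. The ranges nested, and the log2 fold change was -0.02 (95% interval -0.22 to 0.18). The treatment table gave 61.7, 57.9, 54.2 and 51.4 RPM in TGNT rats and from 54.5 through a median of 56.7 to 68.6 RPM in TGTR rats, a log2 fold change of 0.05 (95% interval -0.11 to 0.21). The highest value came from TGTR replicate 2, the treated rat with the least Nr3c1.

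Zbtb16 measured 49.2, 45.0, 48.3, 50.4 and 51.3 RPM in WTNT rats. TGNT rats spread on either side of them, at 53.7, 54.7, 50.1, 39.9 and 39.4 RPM, with 2 above and 2 below the whole WTNT group. The log2 fold change was -0.03 (95% interval -0.24 to 0.17). Zbtb16 in the treatment table measured 81.1, 66.5, 71.2 and 63.4 RPM in TGNT rats and from 59.7 through a median of 68.2 to 74.3 RPM in TGTR rats, a log2 fold change of -0.07 (95% interval -0.25 to 0.11).

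Pdk4, Cdkn1a and Errfi1 are response genes that other signals also drive. Pdk4 encodes a kinase that shuts the entry of pyruvate into the citrate cycle, Cdkn1a the cell cycle inhibitor p21, which p53 also induces, and Errfi1 the EGF receptor inhibitor MIG6. Pdk4 and Cdkn1a were weakly expressed, with 16 to 59 and 18 to 69 counts per rat in the genotype table, so counting error alone is large for them.

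Cdkn1a had the largest fold change of the 9 genes between genotypes. WTNT rats measured 7.13, 7.06, 7.35, 4.44 and 5.26 RPM, and TGNT rats 2.25, 5.28, 3.17, 4.14 and 4.11 RPM. Only TGNT replicate 2 lay within the WTNT range. Its log2 fold change was -0.74 (standard error 0.22, 95% interval -1.21 to -0.27, unadjusted p = 0.00416), which placed Cdkn1a at rank 22 among all genes by p but did not pass adjustment with edgeR (adjusted p = 1). The exact two-sided permutation test of RPM gave p = 0.0238. Cdkn1a in the treatment table measured 3.68, 3.51, 4.66 and 4.42 RPM in TGNT rats and from 3.63 through a median of 5.22 to 7.37 RPM in TGTR rats. The highest value was that of TGTR replicate 5, the library with most choroid plexus transcripts. Of 6 TGTR rats, 4 lay above every TGNT rat, and the log2 fold change was 0.41 (standard error 0.198, 95% interval -0.02 to 0.84, unadjusted p = 0.0589). Without TGTR replicates 5 and 6 it was 0.27 (unadjusted p = 0.202).

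Pdk4 measured 4.97, 6.03, 6.09, 3.41 and 3.82 RPM in WTNT and 2.50, 2.41, 4.31, 4.80 and 5.36 RPM in TGNT rats. Both groups were split and overlapped, with a log2 fold change of -0.34 (95% interval -0.86 to 0.19). Its treatment table values were 4.12, 3.51, 2.93 and 3.50 RPM in TGNT rats and from 2.45 through a median of 3.01 to 3.98 RPM in TGTR rats, a log2 fold change of -0.20 (95% interval -0.59 to 0.20). Errfi1 measured 43.4, 47.7, 36.9, 42.5 and 33.5 RPM in WTNT and 34.6, 31.8, 35.9, 39.5 and 37.1 RPM in TGNT rats, a log2 fold change of -0.18 (95% interval -0.39 to 0.02, unadjusted p = 0.0743). The 3 highest rats were WTNT. Between treatments Errfi1 did not differ beyond its spread, at 41.9 ± 4.49 RPM over 4 TGNT rats and 41.7 ± 2.20 RPM over 6 TGTR rats (SD), and the 95% interval of its log2 fold change ran from -0.15 to 0.15.

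Across the 9 genes, 0 were called in either comparison by the quasi-likelihood test of edgeR, and 0 by its exact and likelihood ratio tests, DESeq2 or limma. Over all genes the share called was 0.0116% between genotypes and 0.0% between treatments. Without adjustment, 1 of the 9 had p under 0.05 between genotypes, Cdkn1a, lower in TGNT, against 1.5% of all genes lower and 1.72% higher. Between treatments Fkbp5 was lower and Nr3c1 higher at that threshold, against 1.93% of all genes lower and 2.98% higher. Groups did not overlap for 0 of the 9 genes. Among genes of at least 1 RPM on average they did not overlap for 0.309% lower and 0.344% higher in TGNT rats, and for 0.633% lower and 0.81% higher in TGTR rats. All 9 fold changes between genotypes were below 0, with a median of -0.18 on the log2 scale, where 47.5% of genes of at least 1 RPM were below 0 and their median was 0.01. Markers of some cell types were lower at a like size, namely 8 of 8 of oligodendrocytes (median -0.19, with Mbp and Mobp at an unadjusted p under 0.05), 5 of 6 of neurons (-0.12), 3 of 3 of the dentate gyrus (-0.13) and 3 of 3 of CA1 (-0.10). The oligodendrocyte level ran from 7.82 to 8.998 in WTNT and from 7.78 to 8.59 in TGNT rats, the neuron level from 9.30 to 9.68 and from 9.37 to 9.52, and the part of these cell types in the member values was not tested. The 9 values are not independent, since the transcripts co-varied across rats, and Nr3c1, Tsc22d3 and Zbtb16 were near 0 at -0.03, -0.02 and -0.03 and were above 0 in some fits without a single rat, at most 0.04, 0.04 and 0.02. Between treatments 6 were below 0 and 3 above, with a median of -0.07.

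**Figure D2:**
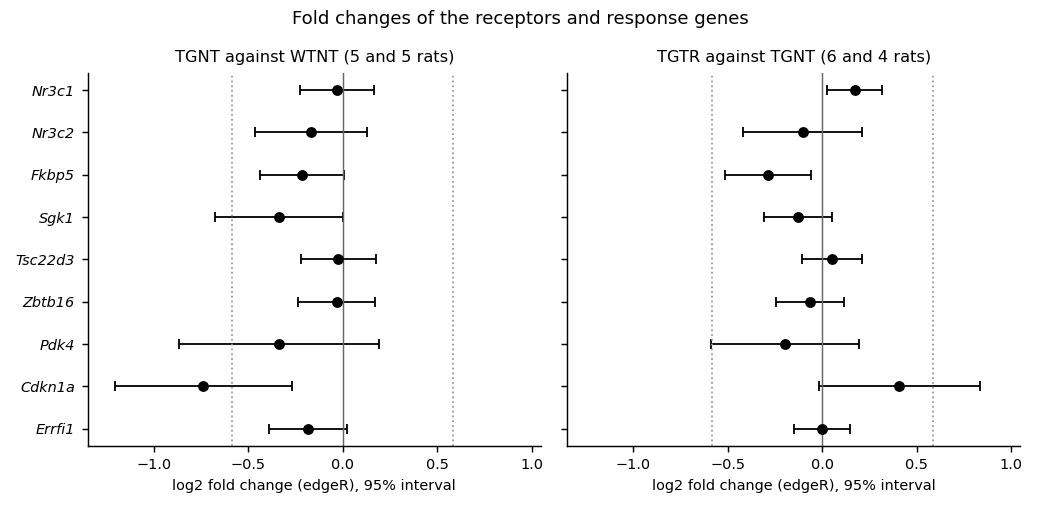
Log2 fold change of the 9 genes (points) with its 95% interval (bars) in TGNT against WTNT rats and in TGTR against TGNT rats, with dotted lines at 1.5-fold. The interval of Cdkn1a between genotypes and those of Fkbp5 and Nr3c1 between treatments exclude 0, and none of the 3 passed adjustment over all genes.

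The count without adjustment depended on single rats. It was 5 of 9 genes between genotypes without WTNT replicate 3, namely Nr3c2, Fkbp5, Sgk1, Cdkn1a and Errfi1, all lower in TGNT rats, where 3.3% of all genes were lower at that threshold in the same fit. It was 4 with the dentate marker level as a covariate (2.33% of all genes), 3 without TGNT replicate 4 (1.52%) and without WTNT replicate 5 (2.42%), and 2 without TGNT replicate 5 (1.39%), again all lower. Between treatments it was 1 without any of TGNT replicates 3 and 4 and TGTR replicates 1 and 6, and 1 without TGTR replicates 5 and 6 together. It was 3 without TGTR replicate 2 or 4, with Cdkn1a higher beside Nr3c1 and Fkbp5 lower. Over these 7 fits, 1.64% to 2.62% of all genes were lower and 2.02% to 3.39% higher at that threshold. Without TGNT replicate 1 the count was 2, namely Fkbp5 and Sgk1, both lower, where 2.65% of all genes were lower and 4.38% higher. In each of these fits 0 genes of the 9 were called.

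Co-variation across rats was measured on log2(RPM + 1) with the group means removed, as Pearson's r over the 10 rats of a table, for all 36 pairs of the 9 genes. P-values come from the exact permutation of rats within groups, adjusted over the 36 pairs of a table. Pairs over the same libraries share depth and tissue makeup. Of the 36 pairs, 18 were positive and 18 negative in each table, with a median r of 0.02 in both. The median absolute r was 0.47 in the genotype table and 0.594 in the treatment table, against 0.343 and 0.368 between the 9 genes and all other genes of at least 1 RPM. These other genes were not matched to the 9 by level, and the part of level in the difference was not tested.

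The pairs split the genes into sets that recurred in both tables. Nr3c2, Sgk1 and Errfi1 moved together with Fkbp5 and Nr3c1 in 7 pairs whose r was above 0.5 in both tables, and Tsc22d3 and Zbtb16 moved against members of that set in 6 pairs whose r was below -0.5 in both. These 13 pairs are 36.1% of all pairs, against 11.5% of the pairs formed by the 9 genes with 11542 other genes, again not matched by level. The sign was the same in both tables for 26 of 36 pairs, or 72.2%, against 61.7% of those other pairs. All 13 pairs stayed beyond 0.5 in both tables without WTNT replicate 3 in the genotype table and TGTR replicate 5 in the treatment table. That check kept TGNT replicate 1 of the treatment table, also apart in its markers, and its part in these pairs was not tested alone. Not all 13 pairs stayed beyond 0.5 without the 2 rats farthest from the median of the first gene named. Nr3c1 with Nr3c2 then had an r of 0.15 in the genotype and 0.45 in the treatment table. Fkbp5 with Sgk1 had 0.44 and 0.92, Sgk1 with Errfi1 0.87 and 0.008, and Sgk1 with Tsc22d3 -0.92 and -0.32. Others stayed beyond 0.5, such as Nr3c2 with Errfi1 (0.82 and 0.88) and with Tsc22d3 (-0.88 and -0.87). Whether rats of the TGNT groups of the tables are the same animals is not given in the sources used here.

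Nr3c2 and Sgk1, a receptor and a target of both receptors, had the lowest exact p of the genotype table. Their r was 0.83 in the genotype table (Spearman's rho 0.76, exact permutation p = 0.000486 for r and 0.00431 for rho, adjusted p = 0.0175 for r) and 0.62 in the treatment table (rho 0.54, exact permutation p = 0.0403 for r and 0.135 for rho, adjusted p = 0.121 for r). Without the 2 rats farthest from the median of Nr3c2 it was 0.78 and 0.43. Of 36 pairs in the genotype table, 9 had an exact p under 0.05 and this 1 passed adjustment, whereas 12 did in the treatment table and 0 passed.

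Among the response genes themselves, the classic hormone targets did not move as a single set. Fkbp5 and Sgk1 had an r of 0.57 in the genotype table (rho 0.49) and 0.85 in the treatment table (rho 0.82, exact permutation p = 0.0112 for r and for rho, adjusted p = 0.0801 for r). Fkbp5 and Tsc22d3, both direct hormone targets, had an r of -0.41 and -0.47, with rho of -0.19 and -0.56. Sgk1 and Tsc22d3 had an r of -0.59 and -0.53, with rho of -0.59 and -0.35. Tsc22d3 and Zbtb16 moved together, with an r of 0.46 and 0.72 and rho of 0.54 and 0.72. None of these 4 pairs passed adjustment in either table.

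Nr3c1 and Tsc22d3 moved against each other, with an r of -0.66 in the genotype table (rho -0.66, exact permutation p = 0.0627 for r) and -0.91 in the treatment table (rho -0.82, exact permutation p = 0.00191 for r and 0.00862 for rho, adjusted p = 0.0687 for r). Without the 2 rats farthest from the median of Nr3c1 it was -0.54 and -0.91. Errfi1 followed Nr3c1, with an r of 0.81 and 0.76 (rho 0.76 and 0.67), which were 0.49 and 0.46 without the 2 farthest rats. It opposed Tsc22d3, with an r of -0.73 and -0.77 (rho -0.73 and -0.79), which were -0.69 and -0.80 without the 2 rats farthest from the median of Tsc22d3. Zbtb16 and Pdk4 had opposite signs in the tables, with an r of -0.83 in the genotype and 0.79 in the treatment table (rho -0.88 and 0.81). The difference between the tables was not tested. Among the pairs of Cdkn1a in both tables, the largest absolute r was 0.53, with Nr3c1 in the genotype table.

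**Figure D3:**
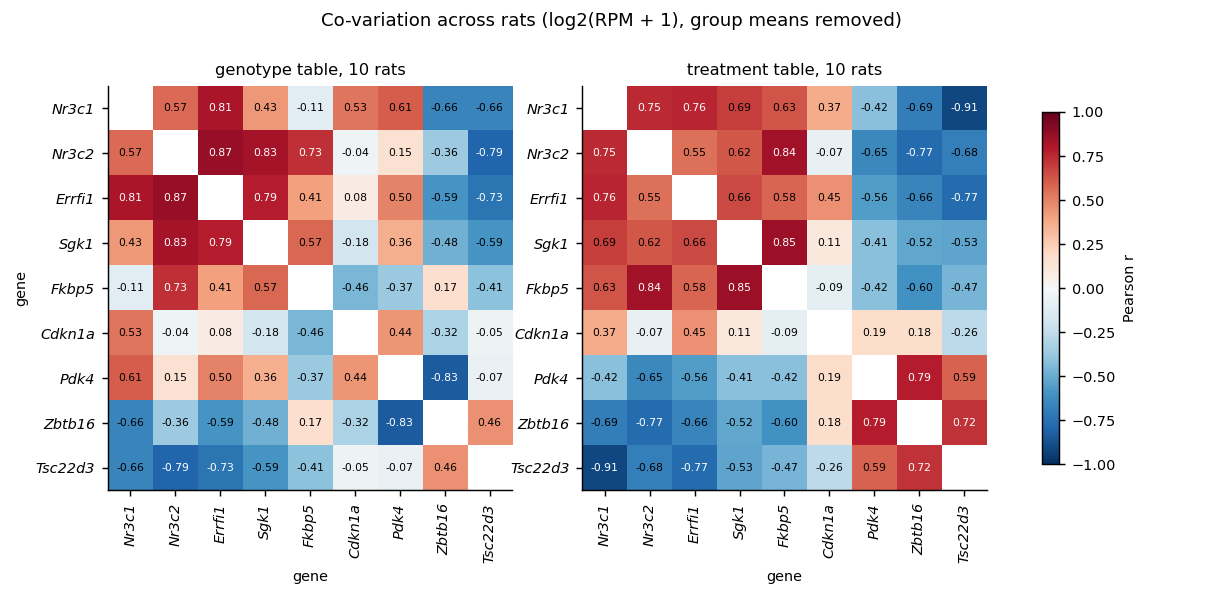
Pearson's r of every pair of the 9 genes across the 10 rats of the genotype table and of the treatment table, on log2(RPM + 1) with group means removed (colour and printed value). Receptors, Errfi1, Sgk1 and Fkbp5 form a mostly positive block in both tables, with Nr3c1 and Fkbp5 at -0.11 in the genotype table, and Zbtb16 and Tsc22d3 are mostly negative against it, with Zbtb16 and Fkbp5 at 0.17 in the genotype table.

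Levels of neuron and regional markers moved with genes of this block, among them Nr3c2 and Fkbp5. Each gene was correlated in the same way with the levels of 17 gene lists, 153 relations per table. Nr3c2 followed 3 dentate granule cell markers, with an r of 0.81 in the genotype table (rho 0.83, exact permutation p = 0.0208 for r, adjusted p = 0.216) and 0.96 in the treatment table (rho 0.95, exact permutation p = 0.000231 for r, adjusted p = 0.0177). It also followed 3 CA3 markers, with an r of 0.95 (rho 0.96) and 0.93 (rho 0.76). Without the 2 rats farthest from the median of the marker level, r was 0.66 and 0.87 for the dentate and 0.95 and 0.84 for the CA3 markers. Its r with 6 markers of neurons of any region was 0.86 (rho 0.77) and 0.92 (rho 0.72, exact permutation p = 0.00203 for r, adjusted p = 0.0394), and with 3 CA1 markers 0.40 (rho 0.47) and 0.87 (rho 0.76, exact permutation p = 0.0022 for r, adjusted p = 0.0394). Nr3c1 had an r of 0.06 with the dentate markers in the genotype table and 0.67 in the treatment table, and Sgk1 had an r of 0.04 and 0.40 with the CA1 markers. In the genotype table Sgk1 had an r of 0.76 with the CA3 and 0.73 with the neuron markers (exact permutation p = 0.0104 and 0.0282). With the CA3 markers of that table Errfi1 had an r of 0.80 and Tsc22d3 of -0.77 (exact permutation p = 0.0264 and 0.0247). None of these passed adjustment (adjusted p = 0.198 to 0.216).

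Fkbp5 followed the dentate markers, with an r of 0.95 in the genotype table (rho 0.76, exact permutation p = 0.00222 for r, adjusted p = 0.113) and 0.83 in the treatment table (rho 0.68, exact permutation p = 0.00775 for r, adjusted p = 0.0704). The 2 farthest rats carried much of this, since r without them was 0.76 and 0.39. With the neuron markers its r was 0.85 (rho 0.72) and 0.90 (rho 0.79), and 0.51 and 0.45 without the 2 farthest rats. The r of Tsc22d3 with the dentate markers was -0.54 (exact permutation p = 0.18) and -0.57, and that of Cdkn1a was -0.39 and 0.04. With the dentate level also removed, the r of Nr3c2 with Fkbp5 went from 0.73 to -0.23 in the genotype and from 0.84 to 0.29 in the treatment table, whereas that of Nr3c1 with Tsc22d3 was -0.75 and -0.87. The r of Nr3c2 with Sgk1 became 0.69 and -0.01, and that of Fkbp5 with Tsc22d3 became 0.41 and 0.01. Of the 13 pairs beyond 0.5 in both tables, 4 remained so, namely Nr3c1 with Errfi1, and Tsc22d3 with Nr3c1, Nr3c2 and Errfi1. The level of the CA3 markers was not removed, and the part of regional makeup in the remaining relations was not tested.

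**Figure D4:**
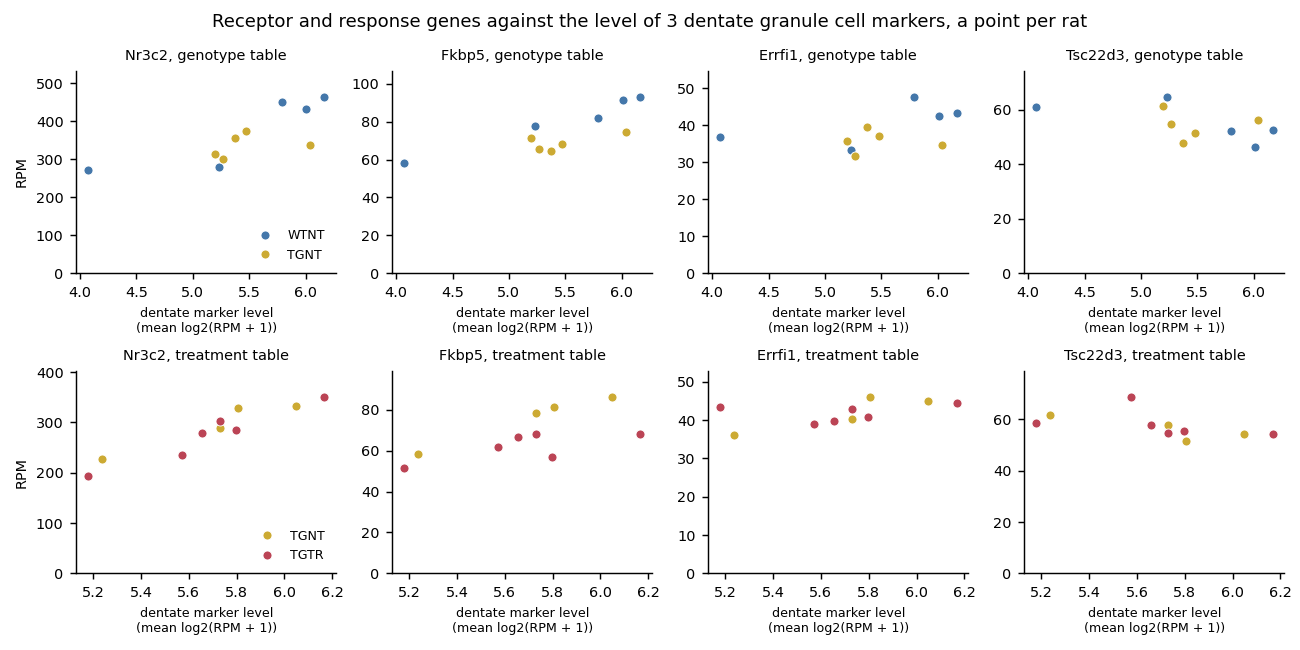
RPM of Nr3c2, Fkbp5, Errfi1 and Tsc22d3 in each rat (points, coloured by group) against the level of 3 dentate granule cell markers, the mean log2(RPM + 1), in the genotype table (top) and the treatment table (bottom). Nr3c2 is higher where the marker level is high in both tables. Tsc22d3 tends to be lower there, with an r of -0.54 in the genotype table (exact permutation p = 0.18). WTNT replicate 3 lies alone at a level of 4.07.

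Other lists also moved with the receptors and Fkbp5. The level of 8 clock genes went against Nr3c2, with an r of -0.80 in the genotype and -0.94 in the treatment table (rho -0.76 and -0.92). This level is a mean over genes that vary with the time of day, and is not itself a reading of that time. It went against Fkbp5 with an r of -0.64 and -0.92. In the treatment table both relations passed adjustment (exact permutation p = 0.00104 and 0.000116 for r, adjusted p = 0.028 and 0.0177). The level of 17 genes of stress peptides and steroid handling went against Fkbp5 in the treatment table, with an r of -0.95 (rho -0.83, exact permutation p = 0.00081 for r, adjusted p = 0.028), and against Nr3c2, with an r of -0.93 (rho -0.85, exact permutation p = 0.000637 for r, adjusted p = 0.028). Without the 2 farthest rats these were -0.79 and -0.80. In the genotype table they were -0.49 and -0.47, and turned to 0.67 and 0.06 without the 2 farthest rats. All 17 genes entered this level, of which 9 had at least 1 RPM in the genotype and 11 in the treatment table. Nr3c1 followed the oligodendrocyte markers, with an r of 0.81 (rho 0.84, and 0.51 without the 2 farthest rats) and 0.87 (rho 0.83, exact permutation p = 0.00231 for r, adjusted p = 0.0394). In all, 9 of 153 relations passed adjustment in the treatment table and 0 in the genotype table, where 24 had an unadjusted exact p under 0.05. The time at which tissue was taken is not given in the sources used here, and the part of the daily rhythm was not tested.

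How many other genes followed each of the 9 differed greatly. Among 9625 genes of at least 5 RPM in both tables, Nr3c2 had 309 with an r of at least 0.8 in both, Fkbp5 165, Tsc22d3 103, Nr3c1 71, Sgk1 35, Errfi1 24 and Zbtb16 12. Pdk4 and Cdkn1a, the genes with few counts, had 0 of 9626. The genes most like Nr3c2 were Gpr155 (r of 0.97 and 0.96), Scn3b, which encodes a sodium channel subunit, and Wipf3. Those most like Fkbp5 were Robo1, which encodes an axon guidance receptor (r of 0.92 and 0.94), Ppm1e and Camkk1, and those most like Sgk1 were Arhgef3 (0.90 and 0.96), Sema3c and Hsd17b11. Rasgrp1 (0.94 and 0.92), Pmp22 and Hunk were most like Nr3c1. Wnt7b (0.92 and 0.94) and Cpne7 were among those most like Tsc22d3. Pnma3 (0.91 and 0.90), Bex2 and Nsfl1c were most like Zbtb16, and Tcp11l2 (0.89 and 0.91), Pcmtd1 and Trhde most like Errfi1. For Pdk4 they were Dym (0.79 and 0.91), Tada1 and Fam149b1, and for Cdkn1a they were Aldh2 (0.74 and 0.80), Cdr2 and Hopx, at lower r. These are descriptions over 10 rats per table, with no test.

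A wider list of 30 genes that glucocorticoids induce in brain or other tissues held 28 in the tables. Between genotypes, 24 had at least 1 RPM, of which 18 had a fold change below 0 and 6 above. Their median was -0.13 on the log2 scale, where 47.5% of all genes of at least 1 RPM were below 0. None was called, and 5 had an unadjusted p under 0.05, against 1.5% of all genes lower and 1.72% higher. The part of the cell types whose markers were lower at a like size was not tested here either. Lower in TGNT rats were Per1, a clock gene with a strong hormone response (39.0 ± 5.22 and 32.3 ± 4.16 RPM, SD, n = 5 each, log2 fold change -0.26), Klf9, a transcription factor (161 ± 31.3 and 134 ± 9.52 RPM, -0.25), Gpd1, which encodes glycerol phosphate dehydrogenase (44.1 ± 2.28 and 36.2 ± 4.29 RPM, -0.28), and Bcl2l1, which encodes Bcl-xL (64.3 ± 6.09 and 56.3 ± 4.45 RPM, -0.19). Dusp1, which encodes a MAP kinase phosphatase, was higher (19.0 ± 3.03 and 26.5 ± 6.46 RPM, 0.49).

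Between treatments, 26 of the 28 had at least 1 RPM, 15 below 0 and 11 above, with a median of -0.01. None was called, and 3 had an unadjusted p under 0.05, against 1.93% of all genes lower and 2.98% higher. Dusp1 was again higher in the second group, at 12.1 ± 2.11 RPM in TGNT and 18.4 ± 5.19 RPM in TGTR rats (log2 fold change 0.60, unadjusted p = 0.0107). Txnip, which encodes an inhibitor of thioredoxin, was higher too, at 49.3 ± 5.37 and 60.2 ± 12.1 RPM (0.29, unadjusted p = 0.044). Lcn2, an acute phase gene, was near the limit of detection, with 0 to 3 counts per rat. The genotype pattern of Per1, Klf9, Gpd1 and Bcl2l1 had log2 values of -0.04, 0.01, -0.13 and 0.00 in the treatment table. The level of the wider list, its mean log2(RPM + 1), moved with Sgk1 across rats in both tables, with an r of 0.83 (rho 0.82) and 0.93 (rho 0.87), and with Nr3c2 at 0.88 (rho 0.94) and 0.68 (rho 0.52). With Tsc22d3 it had an r of -0.63 (rho -0.76) and -0.58 (rho -0.33), and the latter turned to 0.23 without the 2 farthest rats. None of these relations passed adjustment over the 153 (adjusted p from 0.0539).

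**Figure D5:**
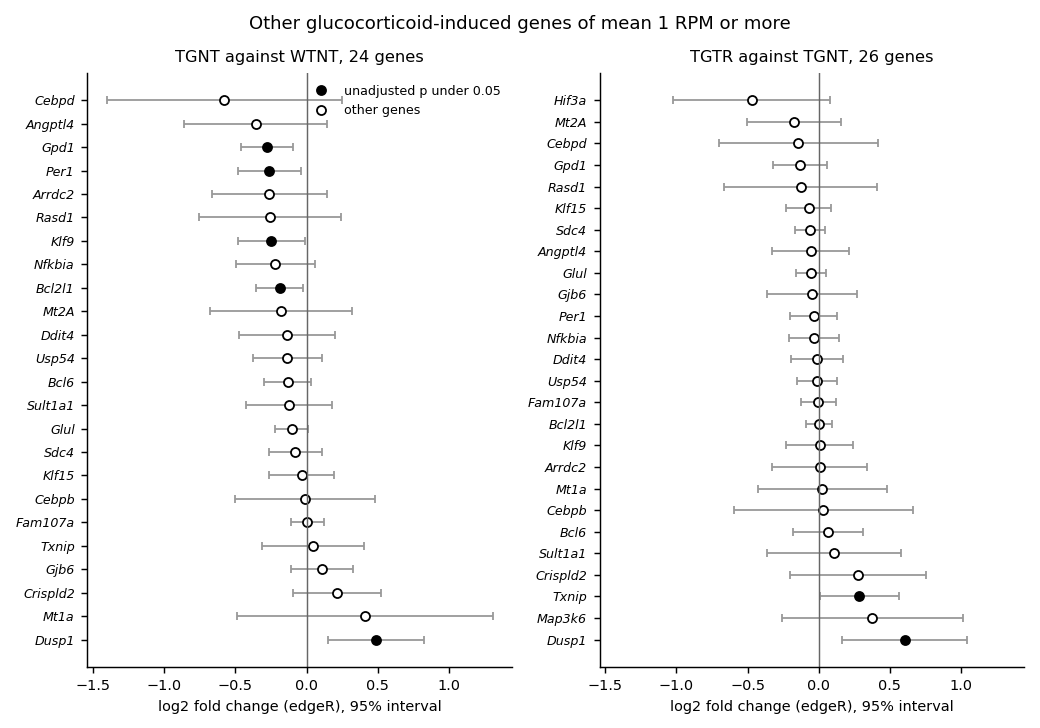
Log2 fold change (points) with its 95% interval (bars) of the other glucocorticoid-induced genes of at least 1 RPM, in TGNT against WTNT rats (24 genes) and in TGTR against TGNT rats (26 genes), filled where the unadjusted p was under 0.05. Most points lie below 0 between genotypes (18 of 24), while between treatments 15 lie below and 11 above.

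No gene of the machinery around the receptors was called in either comparison by edgeR. Of 14 receptor chaperones and coregulators, 8 had a fold change below 0 and 6 above between genotypes, with a median of -0.01, and 6 and 8 between treatments, with a median of 0.01. Fkbp4 encodes FKBP52, the cochaperone that takes the place of FKBP51 on the receptor once hormone binds, and was higher in TGTR rats (148 ± 8.96 and 163 ± 13.1 RPM, 0.14, unadjusted p = 0.0479).

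Of 17 genes of stress peptides and steroid handling, 9 had at least 1 RPM in the genotype and 11 in the treatment table. Crhbp, which encodes the binding protein of corticotropin-releasing hormone, was lower in TGNT rats (13.8 to 16.4 and 10.7 to 13.9 RPM, log2 fold change -0.24, unadjusted p = 0.0349). Hsd11b1, which encodes the enzyme that regenerates active hormone in tissue and was chosen after its values were seen, had a log2 fold change of 0.10 and -0.11, with unadjusted p = 0.212 and 0.159. Among 11 relatives of the 9 genes, Cdkn1b, the p27 sister gene of Cdkn1a, was higher in TGTR rats (29.3 ± 2.55 and 34.2 ± 1.81 RPM, 0.22, unadjusted p = 0.00427), and 0 had an unadjusted p under 0.05 between genotypes. Of 9 p53 target genes of at least 1 RPM, beside Cdkn1a, 4 were below 0 and 5 above between genotypes and 5 below and 4 above between treatments, and 0 had an unadjusted p under 0.05 in either table. The largest differences were those of Bbc3 (log2 fold change 0.51, unadjusted p = 0.0527) and Phlda3 (-0.24) between genotypes, and of Phlda3 (0.22) and Bbc3 (-0.14) between treatments.

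Clock genes and immediate early genes were read beside the response genes because both share hormone or activity signals with them. Of 8 clock genes, 6 were above 0 between genotypes and 7 between treatments. Nr1d2, which encodes a repressor of the clock, was higher in TGTR rats (99.2 ± 6.12 and 111 ± 10.6 RPM, log2 fold change 0.16, unadjusted p = 0.0445). Of 10 immediate early genes, 7 were below 0 between genotypes, with a median of -0.31, and Egr1, Arc, Nr4a1 and Fosb were lower in TGNT rats at an unadjusted p under 0.05 (log2 fold changes of -0.58, -0.50, -0.46 and -0.39). All 10 were above 0 between treatments, with a median of 0.34, and Fos, Arc, Egr4, Egr1, Btg2 and Fosb were higher in TGTR rats at that threshold (0.88, 0.51, 0.41, 0.39, 0.29 and 0.26). None was called. Over all genes, 1.5% were lower and 1.72% higher at that threshold between genotypes, and 1.93% and 2.98% between treatments. Of all genes of at least 1 RPM, 47.5% and 49.9% were below 0. The level of the immediate early genes moved little with Nr3c1, with an r of -0.09 and 0.29, or with Fkbp5, with an r of 0.43 and 0.05.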

How the data were processed

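Hippocampal libraries of female rats, 20 in all and made with a stranded poly(A) mRNA kit, were analysed in 2 tables of 10 rats. Per the labels, reads were converted with bcl2fastq 2.17 and counted with Bowtie2 2.1.0 and RSEM 1.2.15 against rn6. The authors deposited estimated counts per gene symbol, not normalized, and RPM, a signal they scaled with TMM factors within each table. RSEM splits ambiguous reads between genes. Tables normalized apart were never compared directly.

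Estimated counts were rounded and fitted with edgeR 4.0.16 (R 4.3.3), the quasi-likelihood test with TMM factors, each table by itself over its 17168 genes, with Benjamini-Hochberg adjustment. DESeq2 1.42.0 and limma 3.58.1 served as alternatives, beside other normalizations, filters, pseudocounts and fits without each rat. RPM of single genes were compared by exact permutation. Pairs were correlated on log2(RPM + 1) with group means removed, over all 14400 or 17280 arrangements of rats within groups. Scripts were tested on simulated data. Depth sets the precision: a read stood for 0.0706 to 0.171 RPM.

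The 9 genes and all gene lists were chosen with earlier results of these data known. The text names the 9 genes, App, list members with an unadjusted p under 0.05 or otherwise the 2 largest fold changes, and the 3 genes most like each of the 9. Some results that this rule names are not reported here. Lists of regional and cell type markers give levels only. Counts by direction took list genes of at least 1 RPM, whereas list levels averaged every gene of a list found in the tables. Adding the dentate marker level as a covariate, removing it from correlations, and leaving out TGTR replicates 5 and 6 were chosen after seeing the data. RefSeq promoter windows are from GRCr8, which is not the build of the counts. Their coordinates belong to GRCr8 alone.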

Additional observations from a re-analysis of the deposited data

Results flagged for a closer look

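A single value stood apart from its group. Tsc22d3 in TGTR replicate 2 measured 68.6 RPM, and the next TGTR rat 58.6 RPM, a gap that took up 0.71 of the range of the group, above Dixon's critical value for 6 rats. Tsc22d3 encodes GILZ. The same rat had the lowest Nr3c1 of the treated group, 142 RPM. It was the only outlier in 36 groups of 4 to 6 rats tested, where chance alone gives about 1.8. Without this rat the log2 fold change of Tsc22d3 between treatments was -0.0012 in place of 0.05, and neither passed the test. Dixon's rule looks at 1 gene at a time, and the cause of the value was not tested.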

How the results depend on the processing

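The count of 0 called among the 9 genes held under every alternative in both comparisons, with 10 fits per comparison that left out a rat. The count of the 9 with an unadjusted p under 0.05 between genotypes was 1. It was 2 with the exact test, the likelihood ratio test, DESeq2, RLE or upper quartile normalization and 4 with the dentate covariate, and it ranged from 1 to 5 when a rat was left out, highest without WTNT replicate 3. Between treatments it was 2. It was 1 with limma and either pseudocount and without TGTR replicates 5 and 6, and it ranged from 1 to 3 without single rats. Among the other induced genes it was 5 between genotypes (3 to 6 without single rats) and 3 between treatments (1 to 3 without single rats, and 1 with either filter on low counts). The median correlation of the pairs in the genotype table was 0.02, -0.02 to 0.18 without single rats, and 0.23 with no group means removed.

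Replicate numbers are shared by the groups, but same-numbered rats did not deviate together, with correlations from -0.20 to 0.33 in the genotype and -0.58 to 0.14 in the treatment table, and not every rat correlated best with its own number. With the replicate block the unadjusted count was 2 between genotypes and 0 between treatments, with 1 of the other induced genes between treatments and 7 between genotypes. No gene of the 9 was called with it.

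Among refits of single fold changes, 404 kept their direction and their side of the threshold, and 19 had the opposite sign, all of genes near 0. The log2 fold change of Errfi1 between treatments was 0.0010 and 0.0012 with limma, 0.036 by library size only, 0.0052 with the replicate block and 0.0036 with the dentate covariate, and ranged from -0.064 to 0.042 without single rats. That of Zbtb16 ranged from -0.11 to 0.0087 and that of Tsc22d3 from -0.0012 to 0.10 without single rats. Between genotypes those of Nr3c1, Tsc22d3 and Zbtb16 ranged from -0.10 to 0.036, -0.086 to 0.039 and -0.097 to 0.021. The causes were not tested. Pdk4 and Cdkn1a, with few counts per rat, have the widest intervals.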
